A study of Mus musculus with 9 samples.

Results

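The 3 libraries labelled DMSO, of 9 in the series, were examined by themselves to describe what cultured mouse hepatocytes express when given only the solvent. They were chosen by that label and by no measured value. Gene levels were ranked over 21871 protein-coding genes. Per the labels, primary mouse hepatocytes were left 4 h to attach and were then given fresh DMEM with streptomycin and penicillin for 24 h, and all 3 libraries share this history. DMSO is the solvent control of a series whose other libraries received Bobcat339 or 4-Octyl Itaconate, and those libraries were not used here. Remodelin hydrobromide, which blocks the acetyltransferase NAT10, appears in the treatment protocol as an optional addition, without a list of the libraries that received it. Neither the mice (strain, sex, age) nor the dose and duration of DMSO are described in the sources used here. The labels number the replicates 1 to 3 and do not say that they came from separate animals or cultures, so any spread between them may be technical.

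Hepatocytes, the main cells of the liver, make most of the proteins of blood plasma. They also turn ammonia into urea, keep blood glucose steady by storing and making it, make bile acids from cholesterol, and modify drugs with cytochrome P450 enzymes and conjugating enzymes. These functions depend on a network of transcription factors that includes HNF4A and the C/EBP and FOXA factors. Hepatocytes taken from the liver and plated on plastic are known to lose parts of this program with time, while stress and cytoskeletal genes become more active. Freshly isolated hepatocytes and liver tissue were not analysed here, so each level is set against the other genes of the same libraries, and whether it changed in culture was not tested.

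Each library held between 67434312 and 68247951 deposited counts, and 1 read pair was taken to be worth 4 of them. Levels are given in TPM, the count of a gene divided by its exonic length and scaled to the same total in every library, and they allow genes of different length to be compared. The length used matters for the order of genes. With coding length in place of exonic length, 35 of 48 gene lists kept their highest gene and 27 kept the same 4 highest. The same 2 lowest were kept in 38, but lists with 2 or more members without counts keep them under any length. Of 823 list members, 339 moved by over 1.5 times. Words such as highest, led and lowest refer to exonic length.

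Replicates 1 and 2 were nearer to each other than to replicate 3. Between them 13% of genes had a chi-square p under 0.05 on read pairs, where counting error alone would give 5%, against 47.3% between replicates 1 and 3 and 49.9% between replicates 2 and 3. This comparison covers counting error only, since amplified reads are not independent molecules. Of 7156 genes at 10 mean TPM or more, 14 were at least 2-fold apart between replicates 1 and 2, 16 between 1 and 3 and 11 between 2 and 3. All 3 were kept as separate libraries, and n = 3 throughout.

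The albumin gene Alb shows the level a liver gene reached in these cells, and Afp, its neighbour on chromosome 5 and the fetal member of the same family, shows a far lower one. Their promoters are printed to set the sequence beside these levels, as RefSeq gives them on GRCm38.p6, from 250 bases before to 50 bases after the annotated start. Alb lies at chr5:90460620-90460919 and Afp at chr5:90490464-90490763, both on the plus strand. Capitals mark matches on either strand to TATAAA (the TATA box) or CCAAT (the CCAAT box).
Alb: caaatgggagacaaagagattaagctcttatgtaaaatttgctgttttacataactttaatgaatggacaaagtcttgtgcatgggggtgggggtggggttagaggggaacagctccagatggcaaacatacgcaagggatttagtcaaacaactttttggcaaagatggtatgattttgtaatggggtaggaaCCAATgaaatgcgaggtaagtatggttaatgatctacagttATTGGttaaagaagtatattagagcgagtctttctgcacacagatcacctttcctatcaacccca
Afp: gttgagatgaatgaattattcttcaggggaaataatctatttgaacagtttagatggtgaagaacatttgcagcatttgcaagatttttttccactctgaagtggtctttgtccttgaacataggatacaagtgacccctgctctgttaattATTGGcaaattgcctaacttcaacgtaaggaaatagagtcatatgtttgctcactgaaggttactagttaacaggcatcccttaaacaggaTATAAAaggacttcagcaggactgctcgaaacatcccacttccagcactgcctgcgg
The Alb promoter held 2 CCAAT matches, beginning 56 bases before the start on the plus strand and 15 bases before it on the minus strand, and no TATAAA match. The Afp promoter held a CCAAT match on the minus strand 98 bases before the start and a TATAAA match 7 bases before it. No 2 of these matches overlapped. Of 32851 promoters in the RefSeq table, 37.4% held CCAAT and 13.6% held TATAAA. A match is a description of the letters and does not show that a factor binds there.

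The 4 measured members of the albumin family, which carry lipids, hormones and vitamins in plasma, spanned a wide range of the ranking. Alb had 27194, 27342 and 27215 TPM in replicates 1, 2 and 3, and ranked 2 of all protein-coding genes. It ranked 4 with coding length (15259 TPM), below mt-Co1, Fth1 and Mup17, and 1 without mitochondrial genes. Gc, the vitamin D binding protein, averaged 6528 ± 268 TPM (SD, n = 3). Afm, afamin, a vitamin E binding protein, averaged 45.1 ± 4.89 TPM. Afp had 9.12, 10.1 and 8.95 TPM and ranked 7334, so that the TPM of Alb was 2907 ± 182 times that of Afp within a library. The libraries of these 4 genes did not overlap at any step of the order.

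Over all 21871 protein-coding genes, 11152 (51%) reached 1 TPM in every library, 6837 (31.3%) reached 10 TPM, 1026 (4.69%) reached 100 TPM and 107 (0.489%) reached 1000 TPM. A further 5892 had no counts in any library, and the median was 1.44 TPM. The top 10% of genes began at 53.7 TPM and the top 1% at 458 TPM. The 10 most abundant genes held 17.4 ± 0.274% of all TPM and the 100 most abundant held 43.6 ± 0.305%.

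**Figure D1:**
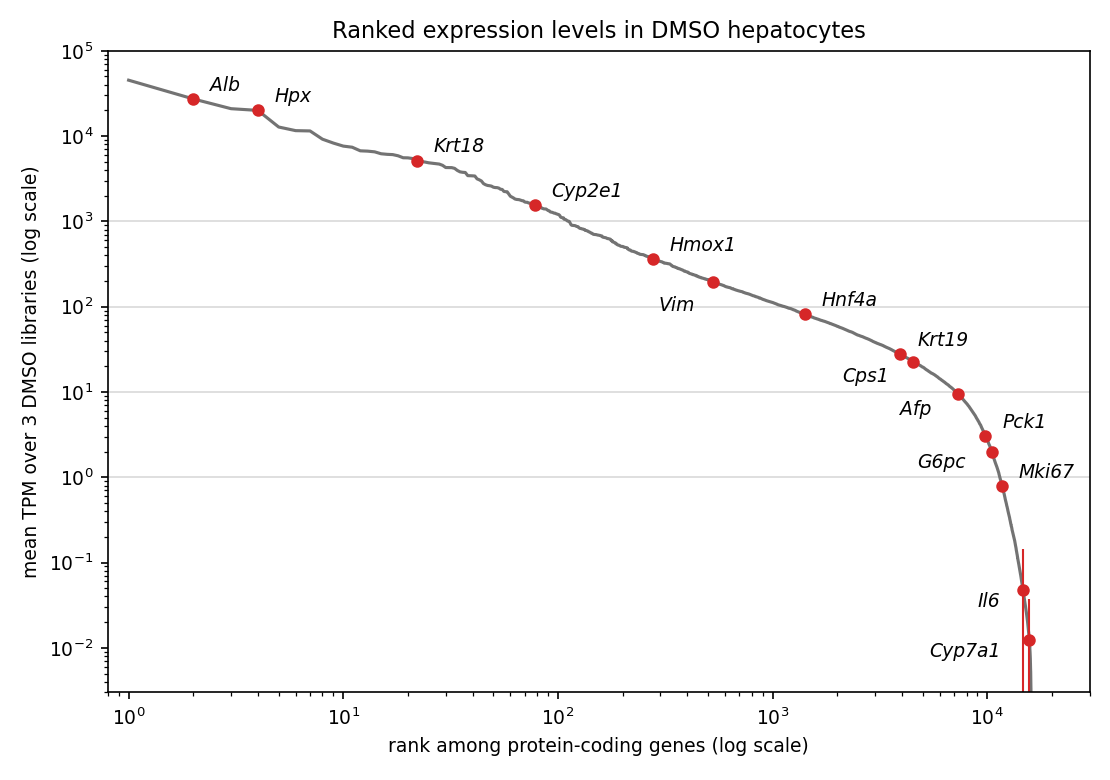
Mean TPM over the 3 DMSO libraries (log scale) against rank among protein-coding genes (log scale), with 15 genes marked in red and vertical red lines for the range over libraries. Alb lies near the top at 27250 TPM, Krt18 at 5124 TPM and Hnf4a at 81.6 TPM, while Pck1 at 3.05 TPM and Cyp7a1 at 0.0123 TPM lie on the steep right end.

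Of the 20 most abundant genes, 5 were Mup genes, 6 were encoded by the mitochondrial genome and 9 were others. The mitochondrial mt-Co1, a subunit of cytochrome c oxidase, ranked first with 42427, 42679 and 50436 TPM. mt-Nd5, mt-Nd1, mt-Nd2, mt-Nd4 and mt-Atp8, subunits of complex I and of ATP synthase, averaged between 5566 and 6712 TPM. The major urinary proteins, small lipocalins that mouse liver secretes and that carry pheromones in urine, were led by Mup17 at 20930 ± 694 TPM and Mup7 at 12763 ± 2909 TPM. Mup12, Mup22 and Mup18 averaged 9185, 7397 and 5550 TPM. Mup genes are near-identical in sequence, so the split of reads among them is uncertain. The median coefficient of variation of 19 Mup genes at 10 TPM or more was 21% and that of the family's summed TPM was 4.56%, and the cause of the spread was not tested. As a family, 22 Mup genes held 8.76 ± 0.399% of TPM.

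Secreted plasma proteins and iron-handling genes made up most of the other highly ranked genes. The haem scavenger Hpx had 21616, 21166 and 17161 TPM, overlapping the Mup17 libraries. The iron carrier Trf averaged 11479 ± 1311 TPM, and the ferritin chains Ftl1 and Fth1, which store iron inside cells, averaged 11571 ± 1134 and 6058 ± 617 TPM. With coding length Fth1 was at 16775 TPM. Apoe, an apolipoprotein, averaged 7623 ± 838 TPM, and Serpina3k, a serine protease inhibitor, averaged 6199 ± 440 TPM. The elongation factor Eef1a1, the remaining gene of the 20, averaged 8264 ± 83.1 TPM. Of the 20 steps down this order, each to the next gene below, only 6 separated genes whose libraries did not overlap, namely mt-Co1 over Alb, Alb over Mup17, Hpx over Mup7, Trf over Mup12, Mup12 over Eef1a1 and Eef1a1 over Apoe.

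Lists of liver functions stood high in the ranking. Over 17 lists with 373 distinct genes, 353 (94.6%) reached 1 TPM in every library, 300 (80.4%) reached 10 TPM, 129 (34.6%) reached 100 TPM and 30 (8.04%) reached 1000 TPM, against 51%, 31.3%, 4.69% and 0.489% of all protein-coding genes. The median over their members was 55.6 TPM, and each of the 17 lists had a median above that of all protein-coding genes. The lists were drawn up as genes that liver is known to express, so a high level is what put them there, and the counts describe how the functions differed among themselves.

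**Figure D2:**
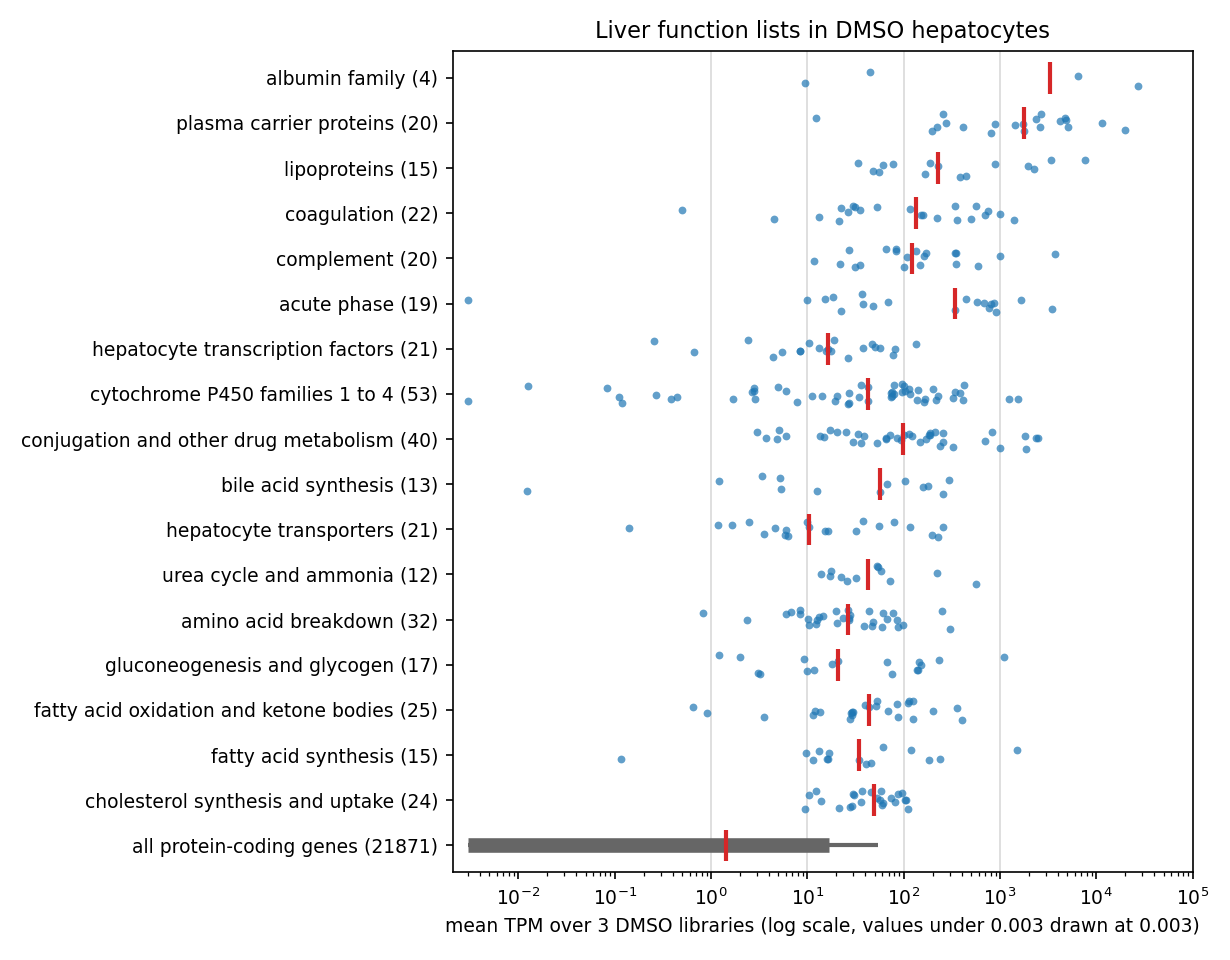
Mean TPM (log scale) of each member of 17 liver function lists, with 1 blue point a gene, a red bar for the list's median and the number of genes in brackets, and below them all protein-coding genes as a thick bar from the 25th to the 75th percentile and a thin one from the 10th to the 90th. Plasma carrier proteins had the highest median of the lists with over 4 members, 1767 TPM, and hepatocyte transporters the lowest of all, 10.5 TPM.

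Genes of secreted proteins were the most abundant group. All 20 plasma carrier and inhibitor genes reached 10 TPM, 19 reached 100 TPM and 12 reached 1000 TPM. The lowest were Serpina6, the corticosteroid carrier, at 12.2 ± 1.35 TPM and Cp, the copper protein ceruloplasmin, at 196.5 ± 35.9 TPM. The antitrypsin genes Serpina1e and Serpina1c averaged 5046 and 4799 TPM, with a split that is uncertain among 6 near-identical copies. All 15 lipoprotein genes reached 10 TPM and 10 reached 100 TPM. Below Apoe, they were led by Apoa1, the main protein of HDL, at 3399 ± 312 TPM, Apoa4 at 2242 ± 202 TPM and Apoa2 at 1971 ± 209 TPM. The lowest lipoprotein gene was Apoa5, a regulator of plasma triglyceride, at 33.3 ± 3.51 TPM, next to Apoc2, the cofactor of lipoprotein lipase.

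Of 22 coagulation genes, 20 reached 10 TPM and 12 reached 100 TPM, with a median of 134.5 TPM. They were led by Cpb2, an inhibitor of clot breakdown, at 1400 ± 53.9 TPM and by the fibrinogen chain Fgg at 1004 ± 115 TPM, followed by the kininogen gene Kng1 at 744 TPM and the fibrinogen chain Fgb at 701 TPM. With coding length Fgb was the highest, at 808 TPM. F8, coagulation factor VIII, which is known to be made in liver endothelial cells, was the lowest at 0.601, 0.441 and 0.457 TPM, and Klkb1, prekallikrein, was next at 4.5 ± 0.939 TPM. All 20 complement genes reached 10 TPM, 10 of them 100 TPM, with the central component C3 at 3740 ± 374 TPM and Masp1, a protease of the lectin pathway, at 11.8 ± 0.478 TPM. Of 19 acute phase genes, 17 reached 10 TPM and 10 reached 100 TPM. The highest was Orm1, a plasma glycoprotein, at 3436 ± 156.5 TPM, and the serum amyloids Saa2 and Saa1 averaged 813 ± 26.5 and 779 ± 15.7 TPM. With coding length the order turned, with Saa2 at 2439 TPM, Saa1 at 2299 TPM and Orm1 at 1870 TPM. Hamp, hepcidin, the hormone that limits iron release, averaged 9.87 ± 1.82 TPM, and Hamp2 had no counts, which allows up to 3 read pairs in each library.

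The transcription factors of the hepatocyte network lay far below the genes of secreted proteins on the TPM scale, with a median of 16.5 TPM over 21 genes, of which 19 reached 1 TPM, 13 reached 10 TPM and 1 reached 100 TPM. Hnf4a had 81.6, 83 and 80.1 TPM, so its libraries lay closer together than those of most genes. Cebpb, a factor that also responds to inflammation and injury, was the highest at 136 ± 23.4 TPM, above Cebpa, the C/EBP factor of resting adult hepatocytes, at 77.8 ± 10 TPM. With coding length Hnf4a was the highest of the list, at 120.7 TPM against 100 TPM for Cebpb. The retinoid receptor Rxra averaged 57.4 TPM. The lowest were Nr1i3, the xenobiotic receptor CAR, with 0.105, 0.2015 and 0.464 TPM, and Onecut1, also called HNF6, with 0.911, 0.574 and 0.498 TPM. Every library of these 2 genes lay below 1 TPM.

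Drug-metabolising genes ranged over the whole scale. Of 53 genes of cytochrome P450 families 1 to 4 and their partners, 44 reached 1 TPM, 36 reached 10 TPM and 17 reached 100 TPM, with a median of 42.9 TPM. Cyp2e1, which oxidises ethanol and paracetamol, had 1583, 1664 and 1403 TPM. Cyp2a5, the mouse coumarin hydroxylase, averaged 1247 ± 24.8 TPM, Cyp2d10 averaged 419 TPM and Cyp4a10, a fatty acid hydroxylase, averaged 409 TPM. Cyp1a2, a caffeine-metabolising enzyme, averaged 204 ± 23.6 TPM and Cyp3a11, a major drug-oxidising P450 of mouse liver, averaged 99.9 ± 17.2 TPM. At the other end, Cyp3a16 had no counts and Cyp3a41a averaged 0.0125 TPM, within the 3 read pairs that a count of 0 allows. All 40 genes of conjugation and other drug metabolism reached 1 TPM and 35 reached 10 TPM, with a median of 97.7 TPM. They were led by glutathione transferases, with Gstp1 at 2485 ± 314 TPM, Gstm1 at 2364 ± 282 TPM, Gsta1 at 1883 ± 29 TPM and Mgst1 at 1803 ± 30.2 TPM. Fmo1, a flavin monooxygenase, and Sult1b1, a sulfotransferase, averaged 2.98 and 3.76 TPM.

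Bile acid synthesis was uneven, with the step that opens the main route near 0. Cyp7a1, the rate-limiting enzyme of the classical pathway, had counts in a single library, for 0, 0 and 0.037 TPM, where 3 read pairs would be worth 0.111 TPM. Cyp8b1, which directs the pathway to cholic acid, averaged 3.42 ± 0.341 TPM and Akr1d1, a steroid reductase of the pathway, averaged 1.21 ± 0.3555 TPM. Cyp27a1, which opens the alternative pathway, had 190, 192 and 161 TPM, and the highest members were Scp2, a sterol carrier, at 294 ± 49.5 TPM, Slc27a5, which links bile acids to coenzyme A, at 259 TPM and Hsd3b7 at 158 TPM. Of all 13 genes, 11 reached 1 TPM and 8 reached 10 TPM. Of 21 transporter and uptake receptor genes, 20 reached 1 TPM and 10 reached 10 TPM. The export pumps Abcc3, which faces the blood, and Abcc2, which faces the bile canaliculus, averaged 258 ± 28.7 and 228 TPM, an order that coding length turned. Asgr1, a chain of the asialoglycoprotein receptor, averaged 117 TPM. The main bile acid uptake carrier Slc10a1 had 14, 17.1 and 18.1 TPM, the sterol exporter Abcg5 averaged 1.2 TPM and Slco1a4, an organic anion carrier, averaged 0.143 TPM.

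Ammonia and amino acid enzymes were present at moderate levels. All 12 genes of the urea cycle and ammonia list reached 10 TPM and 2 reached 100 TPM. Glud1, glutamate dehydrogenase, averaged 560 ± 15.1 TPM and Ass1, which makes argininosuccinate, had 234, 237 and 192 TPM. Cps1, the enzyme that commits ammonia to the cycle, had 21.5, 22.4 and 24.1 TPM, and Arg1, which releases urea, had 12.4, 14.3 and 14.85 TPM. No library of Cps1 or Arg1 overlapped those of Ass1. Arg1 was the lowest gene of the list, and with coding length Cps1 was. Glul, glutamine synthetase, averaged 71.4 ± 5.69 TPM. Of 32 genes of amino acid breakdown, 31 reached 1 TPM, 24 reached 10 TPM and 2 reached 100 TPM. The methylation cycle genes Ahcy and Gnmt led at 300.5 ± 22.4 and 253 TPM, followed by Hpd of tyrosine breakdown at 98.2 TPM. Tat, tyrosine aminotransferase, a gene induced by glucocorticoids, averaged 26.3 ± 3.63 TPM, and Hal and Sds, which break down histidine and serine, averaged 0.82 and 2.38 TPM.

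Genes of glucose output lay low. Pck1, the rate-limiting enzyme of gluconeogenesis, had 3.29, 3 and 2.86 TPM, and G6pc, which releases free glucose, had 1.92, 2.15 and 1.89 TPM. The coactivator Ppargc1a was the lowest of the list at 1.2 TPM. Every library of both enzymes lay below the 10 TPM that 31.3% of all protein-coding genes reached, while Gbe1, the glycogen branching enzyme, averaged 233 ± 21.8 TPM. Of the 17 genes found, 17 reached 1 TPM and 11 reached 10 TPM.

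The list of glycolytic forms that other tissues use also held genes for which no separate liver form was compared, namely its 3 highest. Of these, Ldha averaged 1620 ± 172 TPM, Eno1 1475 ± 169 TPM and Pgk1 1338 ± 43.4 TPM, and with coding length Eno1 was above Ldha. Their levels do not show a change of form. Forms were compared in pairs of genes. The TPM of liver Pklr was 0.199 ± 0.0114 times that of Pkm. The glucose carrier Slc2a2, the form of adult hepatocytes, had 6.465, 6.32 and 5.27 TPM, against 104, 107 and 90.4 TPM for Slc2a1, the form of most other cells. The liver form was the higher one for glycogen phosphorylase (Pygl over Pygb 3.27 ± 0.46). For glycogen synthase the direction depended on the length used, with Gys2 over Gys1 at 1.51 ± 0.153 with exonic length and 0.875 ± 0.089 with coding length. For methionine adenosyltransferase, Mat1a was 0.408 ± 0.0369 times Mat2a. In each of these 5 pairs the libraries of both forms did not overlap with exonic length, and the other 4 pairs kept their direction with coding length. Gapdh averaged 47.8 ± 6.42 TPM, far below its pathway neighbours, while its pseudogene Gapdh-ps15 was listed at 208 ± 25.9 TPM, so the split of reads between these near-identical copies is uncertain and the level of Gapdh is not read further.

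**Figure D3:**
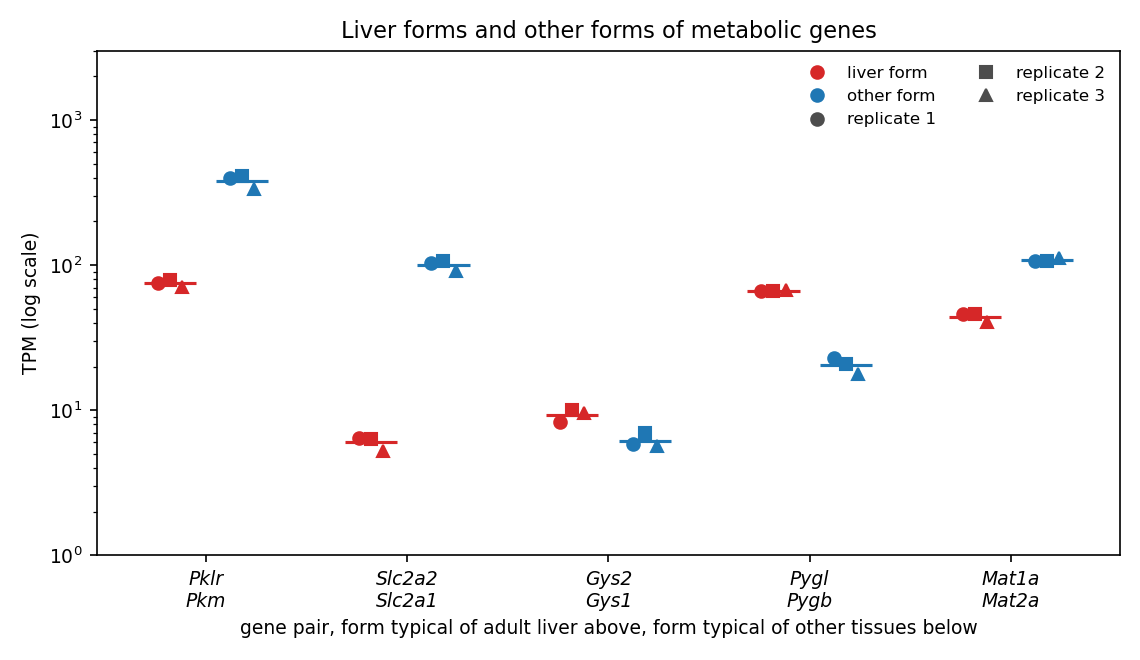
TPM (log scale) in each DMSO library of the form typical of adult liver (red, left) and a form typical of other tissues (blue, right) for 5 gene pairs, with a marker shape for each replicate and a line at the mean. The liver form lies above for Pygl and below for Pklr, Slc2a2 and Mat1a, and Gys2 lies above Gys1 with the exonic length drawn here but below it with coding length.

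Lipid genes were expressed at moderate levels with a few exceptions. Of 25 genes of fatty acid oxidation and ketone body formation, 23 reached 1 TPM, 21 reached 10 TPM and 7 reached 100 TPM, led by the thiolase Acaa2 at 408 ± 40.2 TPM and the fatty acid carrier Fabp1 at 361.5 ± 46.7 TPM, an order that coding length turned. The hormone gene Fgf21 averaged 0.65 TPM and Cpt1b, the muscle form of the carnitine transferase, averaged 0.921 TPM. In fatty acid synthesis, Scd1, a desaturase, stood out with 1485, 1516 and 1478 TPM, above Me1 at 240 TPM, Acly at 184 TPM and Dgat2 at 119 TPM, which supply NADPH and acetyl-CoA and make triglyceride. Pnpla3, a lipid droplet lipase, had 0.299, 0 and 0.0499 TPM. Of 24 genes of cholesterol synthesis and uptake, 22 reached 10 TPM and 1 reached 100 TPM in every library. They ranged from 9.47 TPM for Mvd to 112 TPM for Cyp51. With coding length Insig2, which restrains sterol synthesis, was the highest at 195 TPM and Mvd the lowest at 6.39 TPM.

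Markers of the position of a hepatocyte in the lobule were present from both ends. Of 15 periportal genes, 8 (53.3%) reached 10 TPM, against 31.3% of all protein-coding genes. They were led by Ass1, Pigr at 120 TPM and Hsd17b13 at 114 TPM. Of 18 pericentral genes, 10 (55.6%) reached 10 TPM, led by Cyp2e1, Cyp2c29 at 345 TPM, Cyp1a2 and Cyp27a1. Of these 18, 13 reached 1 TPM in every library and 5 lay below it in every library. Those 5 included Axin2 and Lgr5, which averaged 0.15 and 0.0113 TPM, the level of Lgr5 being under the worth of 3 read pairs. Axin2 was named after its value was seen. Wnt targets, to which both genes belong, were not examined as a set, so these levels do not stand for them. The TPM of Cyp2f2, a periportal P450, was 0.0474 ± 0.0015 times that of Cyp2e1. Of 18 genes known to be higher in male mouse liver, 13 (72.2%) reached 10 TPM, against 31.3% of all protein-coding genes, and their median was 54.4 TPM. The 4 highest were Mup genes, while Elovl3, Susd4 and Moxd1 averaged 4.53, 3.76 and 0.963 TPM. Those known to be higher in female liver were low, with none of 18 at 10 TPM, 3 at 1 TPM and 5 with no counts. The median of the female-biased genes was 0.0603 TPM.

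The epithelial keratins of hepatocytes were among the most abundant transcripts. Krt18 had 5408, 5396 and 4567 TPM and Krt8 had 5288, 5255 and 4335 TPM, ranking 22 and 24, and the ratio of Krt18 to Krt8, which pair in filaments, was 1.03 ± 0.0169 with exonic length and 0.879 ± 0.0143 with coding length. The tight junction gene Cldn3 averaged 627 TPM and the gap junction gene Gjb1 327 TPM. The label of the cells as hepatocytes was thus met by all 4 of its markers, since Alb, Krt8, Krt18 and Hnf4a all lay in the top 10% of genes. Cytoskeletal and culture-associated genes were high too, with a median of 277.5 TPM over 29 genes. Of these, 29 (100%) reached 1 TPM, 28 (96.6%) 10 TPM, 20 (69%) 100 TPM and 3 (10.3%) 1000 TPM. The shares of all protein-coding genes were 51%, 31.3%, 4.69% and 0.489%. Members of this list, like those of the others, were chosen with earlier results of these data known. Actb averaged 2489 ± 307 TPM, Actg1 1809 TPM, Anxa5 1246 TPM and the tubulin Tuba1b 1056 TPM. Vim, the intermediate filament protein of mesenchymal cells, had 203, 204 and 181 TPM. Among 15 progenitor and fetal genes 6 (40%) reached 1 TPM and 2 (13.3%) reached 10 TPM, below the shares of all protein-coding genes. Those 2 were Sox4 at 44.2 ± 4.92 TPM and Sox9 at 16.4 ± 1.49 TPM.

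Stress genes formed another abundant group. Of 21 genes of oxidative stress and metal handling, 21 (100%) reached 10 TPM and 18 (85.7%) reached 100 TPM, with a median of 411 TPM. Over all protein-coding genes these shares were 31.3% and 4.69%. Below the ferritins came Prdx1, a peroxidase of the thioredoxin system, at 1687 ± 34.7 TPM and Srxn1, sulfiredoxin, which repairs peroxiredoxins, at 1502 ± 69.7 TPM. Hmox1, haem oxygenase, had 379, 376 and 332 TPM, and the metallothioneins Mt2 and Mt1 averaged 311 ± 13.8 and 272 ± 34.2 TPM. All 20 genes of the endoplasmic reticulum list reached 10 TPM and 14 (70%) reached 100 TPM, against the same shares. They were led by the disulfide isomerase P4hb at 1672 ± 164 TPM, followed by the chaperone Hspa5, with 989, 985.5 and 1327 TPM. Of 20 immediate early genes, 17 (85%) reached 1 TPM and 15 (75%) reached 10 TPM, against 51% and 31.3% of all protein-coding genes. Jund and Myc averaged 462 ± 75.4 and 140 TPM, whereas Egr3 and Egr2 averaged 0.0643 and 0.546 TPM.

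Cell cycle genes were uneven. Of 27 genes, 21 reached 1 TPM and 8 (29.6%) reached 10 TPM, near the 31.3% of all protein-coding genes. The DNA replication genes Pcna, Mcm6, Mcm3 and Mcm7 averaged 133 ± 12.6, 129 ± 1.51, 67 ± 5.6 and 61.7 ± 6.12 TPM. Mki67, which dividing cells express, had 0.883, 0.715 and 0.757 TPM, the mitotic kinase Bub1 averaged 0.414 TPM and the G1 cyclin Ccnd1 averaged 6.13 ± 0.774 TPM. Other genes of DNA synthesis were low, with Rrm2 at 7.81 TPM and Tyms at 3.27 TPM, and the G1 cyclin Ccne1 averaged 25.2 TPM. The inhibitor Cdkn1a, which p53 and stress induce, had 228, 233.5 and 208 TPM, above every library of Pcna and Mcm6, and Cdkn2a had no counts. Of 27 cytokine and chemokine genes 5 (18.5%) reached 10 TPM, below the 31.3% of all protein-coding genes. Ccl2, a chemokine that draws monocytes, had 161.5, 145.5 and 187 TPM, Cxcl1 averaged 53.1 TPM and Il6 had 0.143, 0 and 0 TPM. Csf2, Ifnb1 and Ifng had no counts.

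Among hormone and growth factor genes, 17 of 24 (70.8%) reached 10 TPM, against 31.3% of all protein-coding genes. They were led by the insulin-like growth factor binding proteins Igfbp2, Igfbp1 and Igfbp4 at 252, 161 and 151 TPM. Met, the receptor of hepatocyte growth factor, came next at 54.9 TPM. With coding length the 4 highest were Igfbp4 at 381 TPM, the growth factor Tgfa at 251 TPM, Igfbp2 at 222 TPM and the growth factor Igf1 at 186 TPM. Igf1r and Hgf averaged 0.272 and 0.296 TPM. The named targets of the compounds used elsewhere in the series were read as well. Nfe2l2, the NRF2 factor, averaged 113 ± 6.69 TPM and its inhibitor Keap1 40.3 ± 3.61 TPM. Of the TET enzymes, which oxidise methylated cytosine, Tet3 had 10.1, 10 and 10.5 TPM, Tet2 had 1.36, 1.11 and 1.36 TPM, and Tet1 had 0, 0 and 0.01 TPM, below the 0.03 TPM that 3 read pairs are worth. Nat10 averaged 16.4 ± 0.708 TPM and Acod1, which makes itaconate, 6.18 ± 0.593 TPM.

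Markers of other cells were uneven. Over 14 lists with 181 distinct genes, 81 (44.8%) reached 1 TPM, 33 (18.2%) reached 10 TPM and 4 (2.21%) reached 100 TPM, below the shares of all protein-coding genes at each threshold, and 38 had no counts. In bulk RNA, fewer cells of a type and less RNA per cell cannot be told apart. Macrophage and Kupffer cell markers were the highest of the liver's other cells. Of 20, 17 (85%) reached 1 TPM, 12 (60%) reached 10 TPM and 2 (10%) reached 100 TPM. The shares of all protein-coding genes were 51%, 31.3% and 4.69%. The sum of these markers was 1350, 1332 and 1235 TPM. Cd68, a lysosomal protein of macrophages, had 532, 544 and 453 TPM and Lyz2, lysozyme, had 326, 323 and 314 TPM, an order that coding length turned, followed by the scavenger receptor Marco at 73.3 TPM and the complement gene C1qa at 68.6 TPM. Clec4f, a receptor particular to mouse Kupffer cells, averaged 3.69 ± 0.325 TPM, while Ccr2 and Ly6c2, genes of recruited monocytes, averaged 0.021 and 0.0847 TPM.

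**Figure D4:**
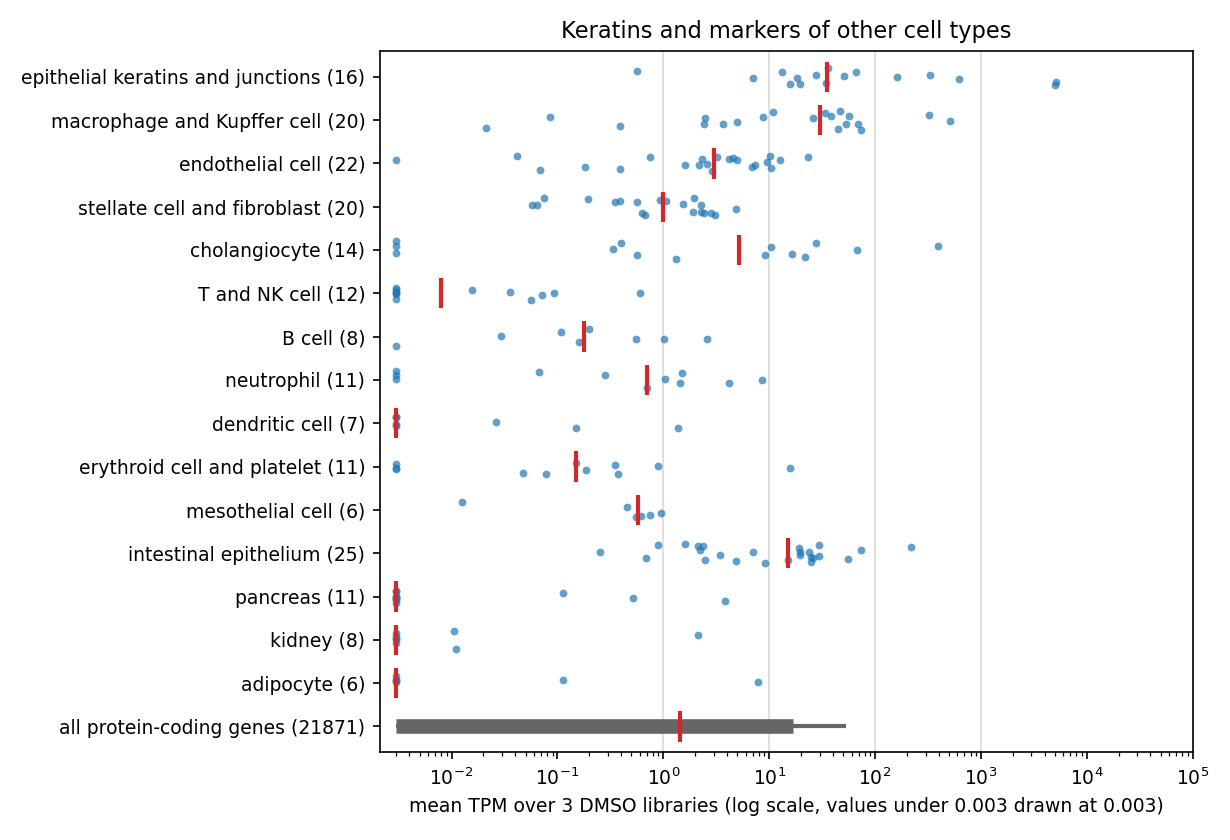
Mean TPM (log scale) of each member of the keratin and junction list and of 14 marker lists of other cells, with points, medians and all protein-coding genes drawn as in the plot of liver function lists. Macrophage (median 29.9 TPM) and intestinal epithelium (median 15.1 TPM) markers reach higher than T cell, pancreas, kidney and adipocyte markers, many of which lie at the left edge because they had no counts.

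Of 22 endothelial markers, 16 (72.7%) reached 1 TPM and 2 (9.09%) reached 10 TPM, against 51% and 31.3% of all protein-coding genes. Their sum was 116, 114 and 102 TPM. They were led by Cdh5, the adhesion protein of endothelial junctions, at 23.3 ± 1.8 TPM and Pecam1 at 12.7 TPM, and Wnt9b had no counts. With coding length Egfl7 was the highest, at 19.65 TPM. Of 20 stellate cell and fibroblast markers, 8 (40%) reached 1 TPM and none reached 10 TPM, against the same 51% and 31.3%. Their sum was 30.3, 28.4 and 25.4 TPM. Lrat, the retinol-storing enzyme that defines resting stellate cells, averaged 0.0578 TPM. Of 14 cholangiocyte markers, 8 (57.1%) reached 1 TPM and 5 (35.7%) reached 10 TPM, against the same 51% and 31.3%. Hepatocytes under stress can also express some of them. They were led by Cldn4 at 392 ± 39.2 TPM, Spp1 at 67.5 TPM, Krt19 at 27.5 ± 1.55 TPM and Epcam at 22 TPM. Krt7, a cholangiocyte keratin, averaged 0.561 TPM, and Sctr and Tff2 had no counts. Blood cell markers were near 0. None of 12 T and NK cell markers reached 1 TPM, against 51% of all protein-coding genes. The other blood cell lists were also below that share. Those at 1 TPM were 1 of 8 B cell, 4 of 11 neutrophil, 1 of 7 dendritic and 1 of 11 erythroid and platelet markers. The exceptions were led by Alas2, the erythroid enzyme of haem synthesis, at 15.7 ± 2.01 TPM, and Ly6g, a neutrophil surface protein, at 8.62 ± 1.56 TPM, while the globin gene Hbb-bt had no counts.

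The marker lists of tissues outside the liver were read as a floor, and intestinal epithelium lay above it. Of 25 intestinal markers, 22 (88%) reached 1 TPM, 13 (52%) reached 10 TPM and 1 (4%) reached 100 TPM. The shares of all protein-coding genes were 51%, 31.3% and 4.69%. The intestinal markers had a median of 15.1 TPM and a sum of 656, 547 and 651 TPM. Lypd8, a protein of colon surface cells, had 239, 189 and 233 TPM. Car1, a colon carbonic anhydrase, averaged 73.3 ± 7.3 TPM, Zg16, a goblet cell lectin, 55.3 ± 4.54 TPM and Muc13, an epithelial mucin, 29.8 TPM. The lowest members were the transcription factors Atoh1 at 0.255 TPM and Hoxb13 at 0.689 TPM, and no member was at 0. In contrast, the lists of 11 pancreas, 8 kidney and 6 adipocyte markers each had 1 member at 1 TPM and 8, 5 and 4 members with no counts, and their sums stayed between 1.999 and 9.08 TPM in every library. The lists differ in size, and their members were chosen with earlier results of these data known. The contrast between lists therefore describes these members only. The source of the intestinal transcripts was not tested.

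Many small differences set replicate 3 apart. The median coefficient of variation of the 7156 genes at 10 mean TPM or more was 9.05%, and it was 2.81% between replicates 1 and 2 alone. The biological coefficient of variation by edgeR, on the deposited counts, was 0.147 over the 3 libraries and 0.0972 over replicates 1 and 2, and 0.112 and 0.054 on these counts divided by 4. All 13 mitochondrial genes were higher in replicate 3 than in both others, and they held 12.1% of TPM there, against 9.55% in replicate 1 and 9.47% in replicate 2. Of 20 plasma carrier genes 18 were lower in replicate 3 than in both others. At 10 mean TPM or more, so were 13 of 15 lipoprotein genes and 22 of 28 cytoskeletal genes. Of 11 genes listed as glycolytic forms of other tissues 10 were lower too, against 52.3% of 7143 nuclear genes. With mitochondrial genes left out of the total, these counts were 18, 12, 18 and 10, and the median log2 of replicate 3 over the mean of replicates 1 and 2 was -0.21 for the carriers and -0.01 for 7143 nuclear genes at 10 TPM or more. Against the mean of replicates 1 and 2, 8 of 7156 genes were at least 2-fold apart, 4 of them higher and 4 lower in replicate 3.

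**Figure D5:**
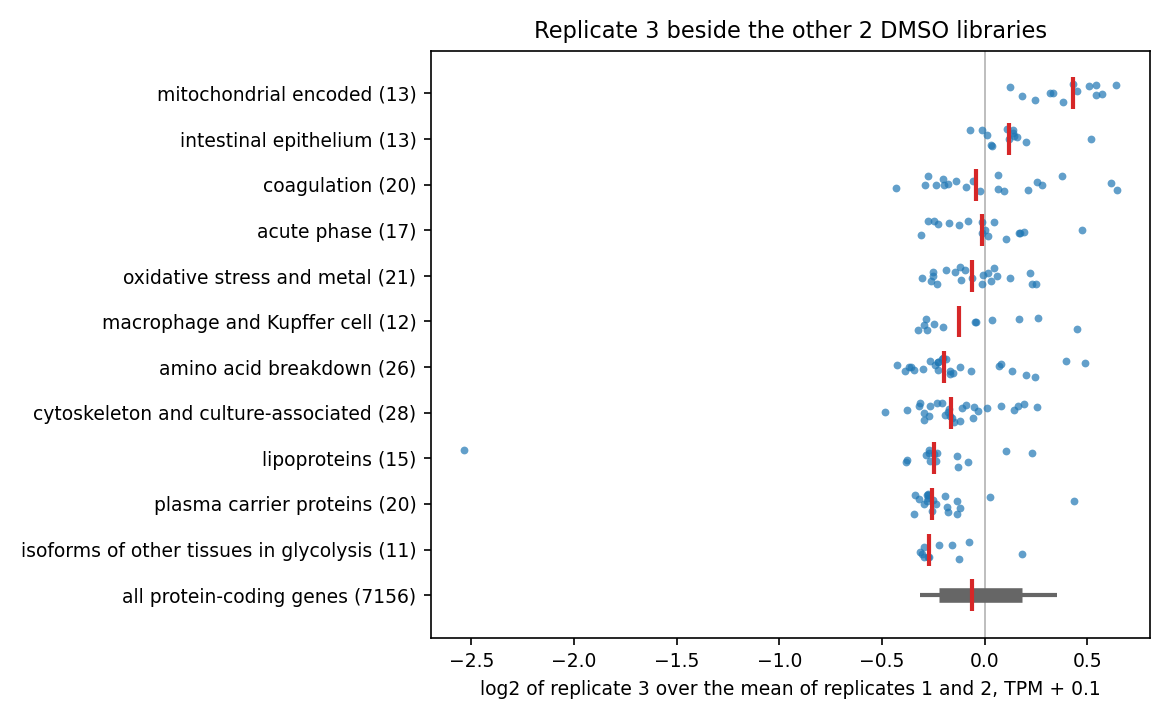
The log2 of TPM + 0.1 in replicate 3 over the mean of replicates 1 and 2, for members of 11 lists with a mean of 10 TPM or more (blue points, red bar for the median) and all protein-coding genes at that level (bars from the 25th to the 75th and from the 10th to the 90th percentile). Mitochondrial genes lie to the right of 0 and plasma carriers mostly to the left, and the single point far to the left is Apoc2.

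The 10 most variable genes at 10 TPM or more, with coefficients of variation from 68 to 173%, included 6 with Gm, Rpl or Mup symbols, and why they varied was not tested. Myl12b was listed under 2 identifiers, and the more variable of them had 0, 0.129 and 97.4 TPM while the other had 108, 109 and 98 TPM. Sept2 likewise had 7.03, 59.5 and 75.3 TPM under its more variable identifier. Mup8 had 322, 1689 and 674 TPM and the ribosomal gene Rpl17 had 346, 62.2 and 91.2 TPM. Apoc2, the cofactor of lipoprotein lipase, had 73.6, 58.65 and 11.3 TPM, and the remaining members were Commd5 and the gene models Gm49378, Gm20521, Gm44805 and Gm49450. Levels of these genes in a single library were not read as biology.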

How the data were processed

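RNA sequencing of 9 libraries in 3 groups of 3 was deposited by the authors as 1 table of 56691 genes, and the 3 DMSO columns were used (columns mapped to no sample: 0). The deposited values were read as estimated counts, in whole numbers not scaled between libraries, because between 44.2% and 45.2% of the values from 4 to 40 were multiples of 4, against 27% for an even spread, a pattern not made by counting each pair once. Base calling with CASAVA 1.8, alignment software HISAT2 2.0.5 and the counter featureCounts 1.5.0-p3 are listed in the submitters' processing notes, while their settings, the genome build and the annotation were not given in the sources used here. How the counts were made is therefore uncertain. A paper supplied with the series described another experiment and was not used for facts.

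Exonic lengths, coding lengths and gene classes came from GENCODE M21 (GRCm38), which held 52073 (91.9%) of the genes by identifier. The other identifiers show that the table was made with another release, so exonic lengths may differ from those the counts refer to. The genes it did not hold carried from 0.327% to 0.436% of a library's counts. Of 2 identifiers with the same symbol, the higher was taken for list members. TPM (a gene's count over its exonic length, scaled to one total a library) was computed in Python 3.11.15 (NumPy 2.4.6, pandas 2.3.3, SciPy 1.17.1), TMM factors and dispersion with edgeR 4.0.16 in R 4.3.3, and figures with matplotlib 3.10.9. Thresholds were 1, 10, 100 and 1000 TPM in every library. A count of 0 allows up to 3 read pairs, or 12 deposited counts, a library, for counting error only. With a single group there was no contrast and no test between conditions. The computation was tested on simulated data.

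There were 48 gene lists with 866 entries, whose members were chosen with earlier results of these data known. All 828 symbols but G6pc1, a newer name of G6pc, were found, 2 of them under another name. The genes named were the 20 highest, in each list up to 4 highest and the 2 lowest members and those at 0, the 10 most variable genes at 10 mean TPM, and a set of hepatocyte and target genes. Axin2, Ccne1, Clec4f, Cps1, Cyp8b1, Gapdh, Gapdh-ps15, Igf1, Insig2, Rrm2, Saa1, Saa2, Slc10a1, Sprr1a, Tgfa, Tyms, Malat1, H19, the Y-linked genes, Xist and, in the gene pairs, Gys1, Gys2, Mat1a, Mat2a, Pklr, Pkm, Pygb, Pygl, Slc2a1 and Slc2a2 fall outside this rule and were chosen after their values were seen. Some genes and a promoter motif that the rules name are not reported here. Alternatives were coding length, mitochondrial genes left out, a mean in place of every library, TMM scaling, shares of counts, a filter at 1 TPM, each library left out and, chosen after seeing the data, replicates 1 and 2 averaged.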

Additional observations from a re-analysis of the deposited data

How the results depend on the processing

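The counts at 1, 10 and 1000 TPM and the counts of liver function and other cell type members at 10 TPM stayed within 1.5 times under every alternative run. The count at 100 TPM, 1026, was 1618 with coding length. The share of TPM held by the 10 most abundant genes, 17.4%, was 12% with coding length, 15.4% without mitochondrial genes and 11.3% as a share of counts, and that of the 100 most abundant, 43.6%, was 33%, 39% and 28% under the same settings. With coding length the members at 10 TPM numbered 4 in place of 2 for progenitor and fetal genes, 10 in place of 5 for cytokines and 0 in place of 1 for erythroid markers, and with a mean over libraries 4 in place of 2 for endothelial markers. Without each replicate in turn these top gene shares ran from 17.3% to 17.6% and from 43.4% to 43.7%. The median coefficient of variation ran from 2.81% without replicate 3 to 10.6% without replicate 1. Of the 20 most abundant genes, 15 were also among the 20 highest with coding length. With a filter at 1 mean TPM, 3 of the 10 most variable genes were the same.

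No paired analysis was possible because a single group was described. Levels under the worth of 3 read pairs cannot be told from 0, and near-identical copies leave the levels of single Mup genes uncertain. With 3 libraries the SD describes these samples only.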

Other observations

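Sprr1a, a small proline-rich protein of the cornified envelope of skin, had 2640, 2698 and 2208 TPM and ranked 50 of all protein-coding genes. It was in no list and was named after its value was seen. Long non-coding RNAs lay lower, with Malat1, a nuclear RNA that many tissues express, at 34.8, 31.3 and 45.5 TPM and H19, an imprinted RNA of fetal liver, at 0.33, 0.283 and 0.141 TPM.

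The labels do not give the sex of the animals. The Y-linked genes Ddx3y and Eif2s3y had 27.3, 22.5 and 33.6 TPM and 20.7, 18.6 and 27.3 TPM in replicates 1, 2 and 3, and Xist, the RNA of the inactive X chromosome, had 0, 0.00862 and 0.0259 TPM.

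Among the promoters found in the RefSeq table for 70 of the 100 most abundant genes, 47.1% held CCAAT and 28.2% held TATAAA, against 37.4% and 13.6% of all promoters there. Genes with several promoters were counted once for each, the shares were not tested, and several of these genes are near-identical copies.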
